A study of Danio rerio with 2 samples.

Results

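The receptors that guide lymphocytes and phagocytes to their tissues were examined in 2 sorted EGFP+ populations of zebrafish carrying a cd8a:EGFP transgene. The genes were *ccr9a*, *ccr9b*, *ccr7*, *cxcr4a*, *cxcr4b*, *cxcr3.1*, *cxcr3.2*, *cxcr3.3* and *cmklr1*. They were chosen by symbol, with their read counts in these same libraries already known, so the levels of these genes are a description and no test was made on them. Of the 32520 Ensembl genes in the count tables, 11 matched. The gene names used here give no paralog letter for 5 of these: 2 genes listed as *ccr9*, 2 listed as *cxcr4* and 1 listed as *cxcr3*. Which of them is *ccr9a* or *ccr9b*, *cxcr4a* or *cxcr4b* was not settled, and they are shown by identifier. In both pairs the gene with more reads is called major below. A further 3 genes are listed as *cmklr1*.

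The melanoma myeloid library came from EGFP+ cells sorted from tumors of 6-week-old fish, which the labels describe as myeloid and as CD8+ dendritic cells, after 24 h of exposure to SB431542, an inhibitor of the TGF-β type I receptor. Their genotype in the methods is Tg(cd8a:EGFP;BRAFV600E;p53null;nacrenull), in which tumors arise where an *mitfa* minigene restores melanocytes. The thymus library came from untreated fish that the labels give as 6 weeks old, while the methods give a higher age, and its cells are labelled as positive for both lck:mCherry and CD8:EGFP. Both populations were identified through an EGFP driven by a cloned fragment upstream of *cd8a*, which marks cells that use this fragment. Each population was 1 library, so tissue, cell type, genotype and drug exposure cannot be told apart, and a difference between the libraries has no replicate check.

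Homing receptors are G protein-coupled receptors that read gradients of secreted chemoattractants. Ccr9 is the receptor of Ccl25, which thymic epithelium and, in mammals, the small intestine produce. Ccr7 binds Ccl19 (and Ccl21 in mammals). In mice it guides thymocytes that have passed positive selection into the medulla and brings dendritic cells to lymph nodes. Cxcr4 binds Cxcl12 and retains hematopoietic cells in their niches. Cxcr3 receptors bind Cxcl11-type ligands and are carried by activated T cells in mammals. In zebrafish, *cxcr3.2* is known from macrophages that migrate towards Cxcl11 ligands, and *cxcr3.3* as an atypical relative that tempers this response. Cmklr1 is the receptor of chemerin and is found on macrophages and dendritic cell subsets in mammals.

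On genes, 39446435 reads were counted in myeloid cells and 32975680 in thymus cells. Reads were expressed per 1000000 reads on genes (CPM), and a gene at 1 CPM or more is called expressed. Values in parentheses are 95% intervals, by Wilson's method for levels and shares and by an exact conditional method for folds. They reflect counting error alone, since the amplified cDNA carried no molecular identifiers and several reads may stem from 1 molecule. Where no read was counted, up to 3 reads are allowed for, or 0.0761 CPM in myeloid cells, against 0.0910 CPM in thymus cells. CPM is not scaled for transcript length. Ranks, shares and sums over different genes are therefore by reads and do not give relative numbers of transcripts. Of 13 matched T cell marker genes, 2 were expressed in myeloid cells and 13 in thymus cells, with summed levels of 7.45 and 2073 CPM. *lck*, *cd28*, *cd247*, *cd247l* and *cd8b* had 0 reads in the myeloid library. Of 19 mononuclear phagocyte genes, 13 were expressed in the myeloid library, at 3852 CPM in sum, and 1 was expressed in the thymus library, at 44.5 CPM in sum. Of 8 dendritic cell genes, 4 were expressed in myeloid cells and 5 in thymus cells, with summed levels of 60.4 and 156 CPM. *ciita* had 0 reads in the myeloid library, and *flt3* and *xcr1* had 0 reads in the thymus library.

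The homing receptors fell into 2 opposite groups. Both *ccr9* genes, *ccr7*, both *cxcr4* genes, *cxcr3* and *cxcr3.3* were lower in the myeloid library, whereas *cmklr1* and *cxcr3.2* were higher there. A gene was called lower or higher when its log2 ratio of CPM + 1, myeloid over thymus, was at least 2 in size, that is 4-fold, and it was expressed in either library. Of the 11 receptor genes 9 could be called, with 7 lower and 2 higher, and 2 *cmklr1* genes had 0 reads in both libraries. Over all 15139 genes that could be called, 29.6% were lower and 17.8% higher, and the median log2 ratio was −0.73. The median of the 9 receptor genes was −3.14. This is the ratio of *cxcr3*, which had 0 myeloid reads, and its value with 0.1 CPM added was −6.31. Most of the 9 were expressed in a single library, the one where they were higher. Centred on the median of all genes, 21.3% of genes were lower and 25.1% higher, against 6 and 2 of the receptor genes. In RNA from sorted pools, fewer cells that express a gene and less RNA per cell cannot be told apart.

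Receptor transcripts were found in both populations. Of the 11 genes, 5 were expressed in myeloid cells and 7 in thymus cells, beside 33% and 39.8% of all genes. Summed over the 11 genes, the level was 1101 CPM in myeloid cells, against 12067 CPM in thymus cells. The major *ccr9* gene contributed 48.1% of the receptor reads in myeloid cells and 75.0% in thymus cells. The major *cxcr4* gene contributed 31.0% and *cmklr1* 18.6% in the myeloid library.

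**Figure D1:**
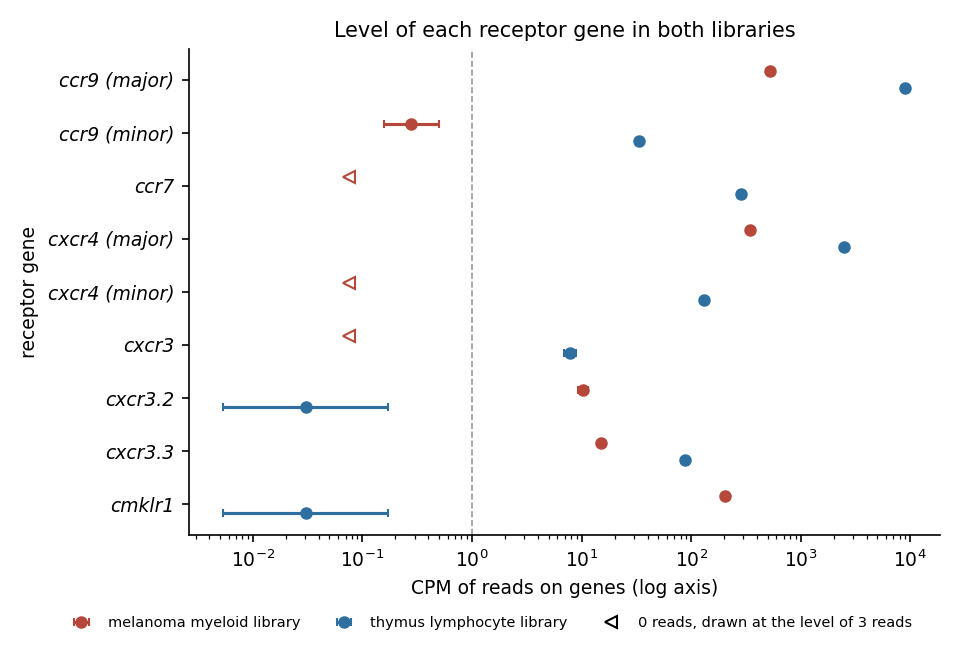
Level of each receptor gene in CPM (log axis) in the melanoma myeloid library (red) and the thymus lymphocyte library (blue), with 95% Wilson bars for counting error and open triangles for 0 reads, drawn at the level of 3 reads. The dashed line is 1 CPM. Myeloid points lie left of the thymus points for 7 genes and right of them for *cxcr3.2* and *cmklr1*, and the major *ccr9* and *cxcr4* genes lie above 300 CPM in both libraries.

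*ccr9*, the thymus homing receptor, was the most abundant of these transcripts by reads in both populations. The major *ccr9* gene (ENSDARG00000055186) had 20865 reads in myeloid cells, which is 529 CPM (522 to 536), and 298389 reads in thymus cells, which is 9049 CPM (9016 to 9081). It was thus 17.1-fold lower in the myeloid library (16.9 to 17.3), with a log2 ratio of −4.09. By reads it ranked 295 among the genes of myeloid cells and 3 among those of thymus cells. Although lower than in thymus lymphocytes, it lay above 98.5% of detected genes in myeloid cells.

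The minor *ccr9* gene (ENSDARG00000099738) was low in the myeloid library. It had 11 reads in myeloid cells, which is 0.279 CPM (0.156 to 0.499), and 1097 reads in thymus cells, which is 33.3 CPM (31.4 to 35.3). The fold was 119 (66.4 to 239.7). Within the pair the minor gene took 0.0527% of reads in the myeloid library (0.0294 to 0.0943) and 0.366% in the thymus library (0.345 to 0.389). This share does not depend on library size, but its value depends on the lengths of both genes.

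*ccr7*, which directs thymocytes and dendritic cells, had 0 reads in the myeloid library and 9404 reads in thymus cells, which is 285 CPM (279 to 291). It was at least 3750-fold lower in the myeloid library, with the myeloid level taken at 3 reads. In the thymus library it ranked 697 by reads, above 96.9% of the genes with reads. Whether a transcript at 0 reads was lost during amplification was not tested. In the opposite direction *ric8a*, a chaperone of G protein α subunits named after its values were seen, had 1954 reads in myeloid cells and 0 in thymus cells.

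Both *cxcr4* genes, receptors of Cxcl12, were lower in the myeloid library, but to very different extents. The major *cxcr4* gene (ENSDARG00000041959) had 13473 reads in myeloid cells, which is 342 CPM (336 to 347), and 81501 reads in thymus cells, which is 2472 CPM (2455 to 2489). It was 7.24-fold lower in the myeloid library (7.11 to 7.37) and ranked 553 there and 15 in the thymus library by reads. The minor *cxcr4* gene (ENSDARG00000057633) had 0 reads in myeloid cells and 4359 in thymus cells, or 132 CPM (128 to 136), at least 1738-fold lower. Its share of the pair's reads was 0 of 13473 in the myeloid library, which allows up to 0.0223%, and 5.08% in the thymus library (4.93 to 5.23).

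**Figure D2:**
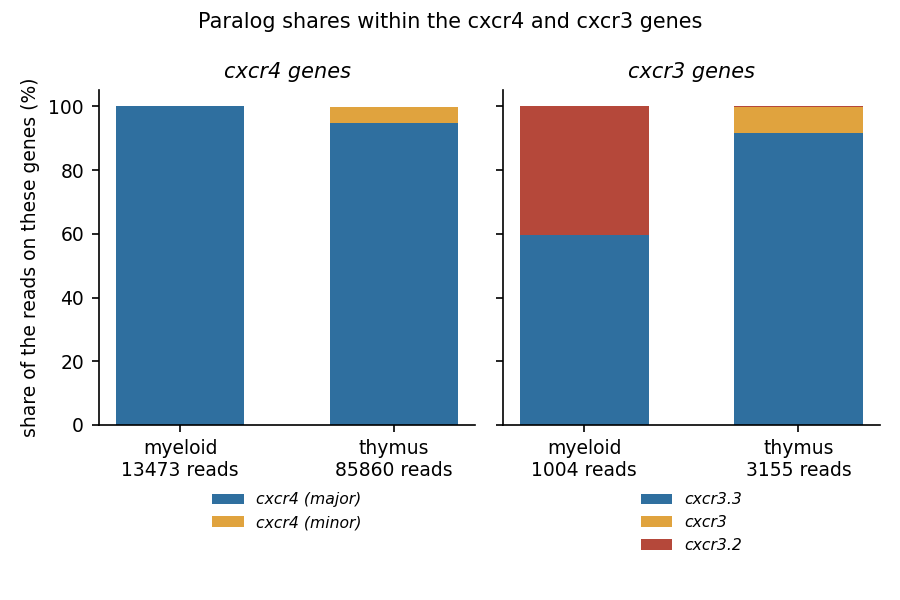
Share of the reads on the 2 *cxcr4* genes (left) and the 3 *cxcr3* genes (right) that each gene took, in percent, in the myeloid and the thymus library. The minor *cxcr4* gene took 0 reads in myeloid cells and 5.08% in thymus cells, and *cxcr3.2* took 40.5% of *cxcr3* reads in myeloid cells and 0.0317% in thymus cells.

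The *cxcr3* genes were used differently in the 2 populations. *cxcr3.2* (ENSDARG00000041041), the macrophage receptor, had 407 reads in the myeloid library, or 10.3 CPM, and 1 read in the thymus library. The ratio was 340.2 (60.7 to 13471). *cxcr3.3* (ENSDARG00000070669) had 597 reads in myeloid cells, which is 15.1 CPM (14.0 to 16.4), and 2896 reads in thymus cells, which is 87.8 CPM (84.7 to 91.1). It was 5.80-fold lower in the myeloid library (5.31 to 6.35). The gene listed as *cxcr3* (ENSDARG00000007358), which may be *cxcr3.1* by its name, had 0 reads in myeloid cells and 258 in thymus cells, or 7.82 CPM (6.93 to 8.84), at least 103-fold lower.

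Of the 1004 *cxcr3* reads in the myeloid library, *cxcr3.2* took 40.5% (37.5 to 43.6) and *cxcr3.3* 59.5% (56.4 to 62.5). Of the 3155 reads in the thymus library, *cxcr3.2* took 0.0317% (0.00560 to 0.179), *cxcr3.3* 91.8% (90.8 to 92.7) and *cxcr3* 8.18% (7.27 to 9.19). In the RefSeq annotation of the GRCz12tu assembly, *cxcr3.2*, *cxcr3.3* and *cxcr3.1* lie side by side, with only a long noncoding RNA gene between *cxcr3.3* and *cxcr3.1*. Reads that aligned to several of these relatives may have been left uncounted. The call on *cxcr3.3* depended on scaling. Its log2 ratio was −2.46, but −1.90 with TMM, −1.94 with DESeq2 size factors and −1.73 when centred on the median, all under 4-fold. Its direction did not change.

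*cmklr1*, the chemerin receptor, was the receptor most strongly biased to the myeloid library by the size of its ratio. One of the 3 genes of this name (ENSDARG00000090890) had 8066 reads in the myeloid library, or 204 CPM (200.1 to 209), and 1 read in the thymus library, a ratio of 6743 (1210 to 266361) and a log2 ratio of 7.64. By reads it ranked 982 in the myeloid library, above 94.9% of the genes with reads. The others (ENSDARG00000109654 and ENSDARG00000110362) had 0 reads in both libraries. Several chemerin receptor-like genes lie next to *cmklr1* in the RefSeq annotation, and the similarity of these copies was not examined.

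**Figure D3:**
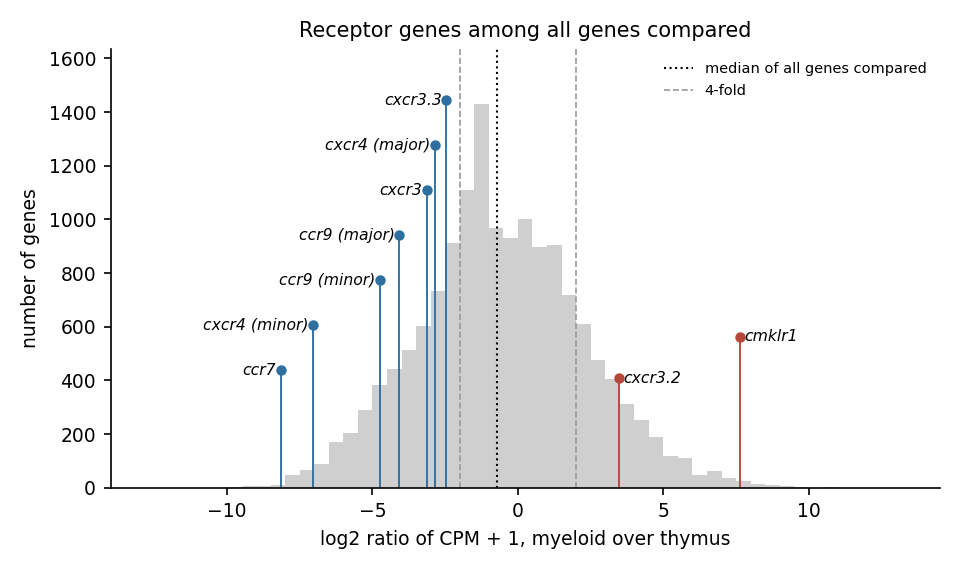
Log2 ratio of CPM + 1, myeloid over thymus, of the 9 receptor genes that could be called (stems, with heights set for legibility) over the histogram of all 15139 genes that could be called (number of genes per bin). The dotted line is the median of all genes, −0.73, and the dashed lines are 4-fold. *ccr7* at −8.16 and the minor *cxcr4* gene at −7.06 lie in the lower tail, and *cmklr1* at 7.64 in the upper tail.

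The receptors that were lower yet present in the myeloid library were set beside T cell markers. The myeloid level was 5.85% of the thymus level for the major *ccr9* gene (5.76 to 5.93), 13.8% for the major *cxcr4* gene (13.6 to 14.1), 17.2% for *cxcr3.3* (15.8 to 18.8) and 0.838% for the minor *ccr9* gene (0.417 to 1.51). For 12 T cell markers other than *cd8a* it was between 0 and 1.70%, with a median of 0.0143%. *cd8a*, whose promoter region drove the reporter, was at 9.34%. Among these markers *lck* had 0 reads, *tcf7* was at 0.277%, *cd4-1* at 1.29% and *lat* at 1.70%. The shares of the major *ccr9* gene, the major *cxcr4* gene and *cxcr3.3* lay above those of these 12 markers, whereas the share of the minor *ccr9* gene lay within their range. The share of *cd8a* lay above that of the major *ccr9* gene. Whether T cells of a tumor carry these genes in the proportions of thymus cells was not tested. The part of T cells in the receptor levels was not tested.

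Markers of several other cell types also differed between the libraries, to unlike extents. In the myeloid library melanocyte genes had the largest sum, beside 3852 CPM for mononuclear phagocyte genes and 60.4 CPM for dendritic cell genes. Of 9 melanocyte marker genes, 8 were expressed in the myeloid library, at 24478 CPM in sum with only *oca2* at 0, and 0 in the thymus library, at 1.15 CPM. Of 7 neutrophil genes, 7 were expressed in myeloid cells and 4 in thymus cells, at 837 and 510.1 CPM in sum, with *lyz* and *mmp13a* at 0 in the thymus library. Of 5 epithelial genes, 4 were expressed in the myeloid library, at 233 CPM in sum, and 1 in the thymus library, at 3.97 CPM, with *foxn1* at 0 there. Of 6 B cell genes, 3 were expressed in the myeloid library with *cd79a* and *pax5* at 0, and 2 in the thymus library with *cd37* at 0. The 3 endothelial genes were under 1 CPM in both libraries. Of 3 erythroid genes, 2 were expressed in myeloid cells and 0 in thymus cells, at 31.5 and 0.273 CPM in sum. The part of these cells in the levels of the receptors and of the genes below was not tested.

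The ligands of these receptors ranged widely in the myeloid library. Of 14 matched genes for Ccl25, Ccl19, Cxcl12 and Cxcl11 ligands, 4 were expressed in myeloid cells and 1 in thymus cells, beside 33% and 39.8% of all genes. *ccl25a* had 0 reads in myeloid cells and 1 in thymus cells, and *ccl25b* had 4 and 2 reads. Of the *ccl19* genes, *ccl19a.1* was at 3.02 CPM in myeloid cells, against 2 CPM in thymus cells, a ratio of 1.51 (1.11 to 2.07). *ccl19a.2* had 0 and 11 reads and *ccl19b* 0 and 7 reads in the myeloid and the thymus library. The gene listed as *cxcl12* was at 1.12 CPM in myeloid cells and had 1 read in the thymus library, and *cxcl12b* had 4 and 6 reads.

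Among them *cxcl11.1*, a ligand of the Cxcr3 type, had the most reads in the myeloid library. It had 1831 reads in the myeloid library, or 46.4 CPM, and 0 in the thymus library, at least 510.2-fold higher. It was thus found in the same library as *cxcr3.2* and *cxcr3.3*. Which cells of the sorted pool carried it was not tested. *cxcl11.7* was at 2.33 CPM in myeloid cells and had 2 reads in the thymus library, while *cxcl11.4* had 4 and 0 reads, *cxcl11.8* had 0 and 1, and *cxcl11.3*, *cxcl11.5* and *cxcl11.6* had 0 in both. No gene was matched to chemerin or *ccl21*, which were not analysed here.

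Of 42 matched chemokine genes, most that could be called were higher in the myeloid library, whereas most homing receptors that could be called were lower. Of the 16 that could be called, 11 were higher in the myeloid library, 1 was lower and 4 were neither, with a median log2 ratio of 3.48. The other 26 could not be called. Of the 42, 15 were expressed in myeloid cells and 4 in thymus cells. Most of the 16 could thus be called only through the myeloid library, so their count and median follow in part from that filter. Over all genes 17.8% were higher and 29.6% lower, with a median of −0.73. *cxcl14* was at 157 CPM in myeloid cells and had 0 reads in the thymus library, at least 1724-fold higher. *ccl34b.8* was at 38.2 CPM with 1 thymus read, a ratio of 1261 (226 to 49825), and *ccl34a.4* at 35.9 CPM with 0 thymus reads, at least 395-fold higher.

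Of 23 other receptors for chemokines and related attractants, 12 could be called. Of these, 4 were higher and 2 lower in the myeloid library, and 6 were neither, beside 17.8% higher and 29.6% lower over all genes. Their median log2 ratio was −1.16, against −0.73 over all genes. *c5ar1*, the complement C5a receptor of phagocytes, was at 26.2 CPM in myeloid cells and had 1 thymus read, a ratio of 865 (155 to 34207). *fpr1*, a formyl peptide receptor, was at 53.4 CPM in myeloid cells, against 3.21 CPM in thymus cells, 16.6-fold higher (13.7 to 20.4). One of the 2 genes listed as *cxcr1*, a receptor of Cxcl8 on neutrophils, was at 7.12 CPM in the myeloid library with 2 reads in the thymus library, and the other had 0 reads in both.

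The scavenger receptors, which remove chemokines without signaling through G proteins, also split. One gene listed as *ackr3* (ENSDARG00000058179), a scavenger of Cxcl12, was at 15.9 CPM in myeloid cells and had 0 thymus reads, at least 175-fold higher. The other gene listed as *ackr3* (ENSDARG00000062478) had 1 read in the myeloid library and 40 reads in the thymus library, a fold of 47.8 (8.11 to 1937) that was not called on the scale of CPM + 1. One listed as *ackr4* (ENSDARG00000078729), a scavenger of Ccl19 and Ccl25 in mammals, had 1 read in the myeloid library and was at 13.6 CPM in the thymus library, a fold of 537 (95.9 to 21261). *cxcr5*, the follicular homing receptor, had 1 read in the myeloid library and was at 4.25 CPM in the thymus library.

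**Figure D4:**
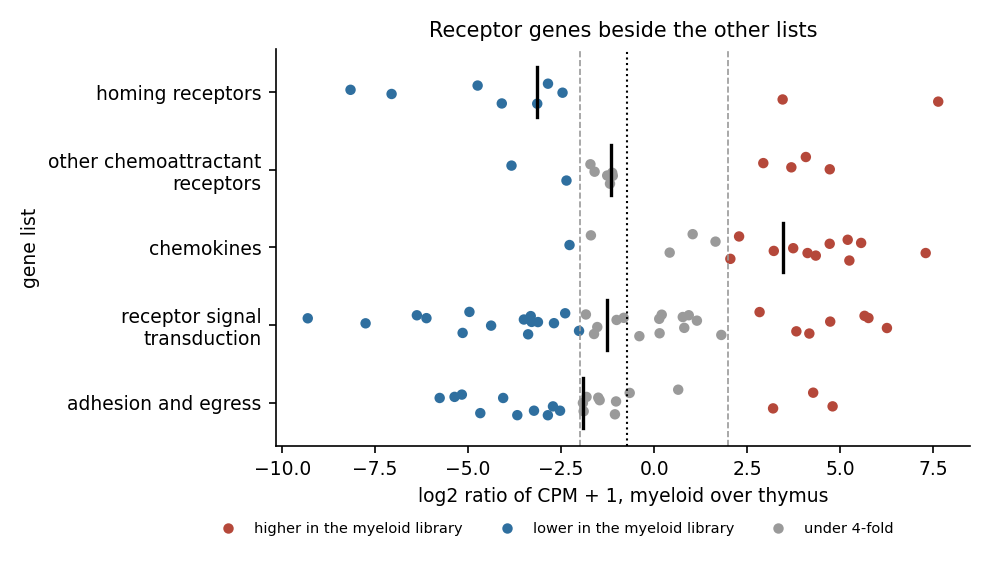
Log2 ratio of CPM + 1, myeloid over thymus, of each gene that could be called in the homing receptors and in 4 lists of related genes, with vertical jitter. Black bars are list medians, the dotted line is the median of all genes (−0.73) and the dashed lines are 4-fold. The receptor median lies at −3.14 and the chemokine median at 3.48, where most chemokines could be called only through the myeloid library.

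Genes that carry the signal of these receptors into the cell differed by paralog. Of 36 that could be called, 15 were lower in the myeloid library, 7 higher and 14 neither, beside 29.6% lower and 17.8% higher over all genes. Their median log2 ratio was −1.27, against −0.73 over all genes. *pik3cd*, the δ catalytic subunit of phosphoinositide 3-kinase, had 2 reads in the myeloid library and was at 666 CPM in the thymus library, a fold of 13141 (3637 to 108518). *pik3cg*, the γ subunit that G proteins activate, was at 111 CPM in myeloid cells, against 321 CPM in thymus cells, 2.90-fold lower and so under 4-fold. The gene *rapgef1* (ENSDARG00000043593) had 0 myeloid reads and was at 215 CPM in the thymus library, at least 2829-fold lower. *was*, which drives actin branching in blood cells, had 1 myeloid read and was at 84.2 CPM in the thymus library, a fold of 3322 (596 to 131256). Its paralog *wasa* was at 31.6 CPM in myeloid cells, against 64.5 CPM in thymus cells, 2.04-fold lower and so under 4-fold.

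Among the inhibitory G protein α subunits, through which chemokine receptors signal, *gnai3* was at 176 CPM in myeloid cells, against 1.30 CPM in thymus cells, 135-fold higher (99.9 to 186). *gnai1* was at 659 CPM in myeloid cells, against 867 CPM in thymus cells, a ratio within 4-fold. The *gnai2* gene ENSDARG00000017294 had 451 reads in myeloid cells and 4050 reads in thymus cells, 10.7-fold lower (9.74 to 11.9). The other *gnai2* gene (ENSDARG00000018174) was at 272 CPM in myeloid cells, against 481 CPM in thymus cells, 1.76-fold lower and so under 4-fold. Of the Rac GTPases, *rac1a* was at 729 CPM in myeloid cells, against 12.4 CPM in thymus cells, 58.6-fold higher (53.2 to 64.8), whereas *rac2*, the form of blood cells, was at 79.4 and 325 CPM, 4.09-fold lower (3.93 to 4.25). The receptor kinases *grk3*, *grk4*, *grk6* and *grk5l*, which switch activated receptors off, were all lower in the myeloid library, while the G protein regulators *rgs2*, *rgs3a* and *rgs16* were higher and *rgs18* was lower. When centred on the median of all genes, *rac2* and *grk5l* lay within 4-fold, with log2 ratios of −1.29 and −1.66. *rgs3a* was at 865 CPM in myeloid cells, against 31.5 CPM in thymus cells, 27.5-fold higher (25.8 to 29.2). The genes *pik3cg*, *wasa*, *gnai1*, *rac1a*, *rac2*, *ric8a*, *cxcr1*, *cxcr5*, all *grk* and *rgs* genes above, both *gnai2* genes and the second *ackr3* gene were named after their values were seen.

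The genes most like the major *ccr9* gene were found by the distance in log2(CPM + 1) over the 2 libraries. The 3 nearest were *zfp36l1*, at 347 CPM in myeloid cells, against 4417 CPM in thymus cells (distance 1.20), *gtpbp1*, at 522 and 2878 CPM (1.65), and *ncl*, at 348 and 2322 CPM (2.05). For *cmklr1*, taken as a second example after its values were seen, the 3 nearest were *gpr61*, at 211 CPM with 1 thymus read (distance 0.05), *matcap1*, at 213 CPM with 0 thymus reads (0.07), and *slc7a11*, at 200.1 CPM with 3 thymus reads (0.09).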

How the data were processed

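RNA-seq libraries of EGFP+ cells from melanoma and from thymus, 1 each, were analysed. A SMART-Seq kit for low input amplified the cDNA before Nextera XT library preparation. The deposited values are raw counts per Ensembl gene, made by the authors with htseq-count. The submitters' processing notes name cutadapt, STAR 3.0, HTSeq and GRCz11, whereas the methods describe TopHat, an earlier build and FPKM. Strand setting and annotation release are not given in the sources used here. Summary rows, present only in the thymus table, were left out (28.4% of its reads, of which 6966482 reads aligned to several places).

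Symbols were matched for 29201 of 32520 genes. CPM, Wilson intervals, exact conditional intervals of folds and log2 ratios with a pseudocount of 1 CPM were computed with scipy 1.17.1, pandas 2.3.3 and numpy 2.4.6 under Python 3.11.15, and the script was tested on simulated data. Folds against 0 reads used 3 reads. No p-value was computed. Library sizes were also taken from edgeR 4.0.16 (TMM) and DESeq2 1.42.0 in R 4.3.3. Figures used matplotlib 3.10.9. Genes named are all receptor genes, the ligands of these receptors and, per list, the 4 genes with the largest ratio among those at 10 CPM or more in either library. Exceptions are stated. The receptor genes and lists were chosen with earlier results of these data known. Centring on the median was added after seeing the data.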

Additional observations from a re-analysis of the deposited data

How the results depend on the processing

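No paired analysis was possible because each population had a single library, and for the same reason no replicate could be left out. Levels per coding length were not run, since no lengths for these identifiers were used here. The median log2 ratio of all genes shifted by 0.61 with TMM, by 0.56 with DESeq2 size factors and by 0.06 without the 10 genes with most reads. At a threshold of 16-fold, 11% of all genes were lower and 6% higher. There, 4 receptor genes were lower (both *ccr9* genes, *ccr7* and the minor *cxcr4* gene) and 1 was higher (*cmklr1*). TMM, DESeq2 size factors and centring left 6 lower, without *cxcr3.3*, and summing genes that share a symbol left 5 of 7. Over all genes, the shares lower and higher were 25.1% and 22.4% with TMM and 25.4% and 22% with DESeq2 size factors. They were 21.3% and 25.1% with centring, and 29.1% and 17.5% with genes summed. The other settings for calls (0.1 CPM added, 2-fold, at least 10 reads, no filter, without the 10 genes) gave 7 lower and 2 higher. Under these settings the share of all genes called changed widely. In the same order, 39%, 46.4%, 25.8%, 13.8% and 29.2% of all genes were lower. Those higher were 21.6%, 28.6%, 15.6%, 8.3% and 18.5%. The receptor genes expressed numbered 5 and 7 in the myeloid and the thymus library at 0.5 and 5 CPM and under each scaling. Of 45 log2 ratios of single receptor genes under 5 settings, 37 moved beyond the counting interval and 0 reversed. Centring left 1 lower and 4 higher of the other receptors, 0 and 12 of the chemokines, 12 and 8 of the signal transduction genes and 8 and 3 of the adhesion and egress genes. Depth limits the genes with 1 to 3 reads in a library, whose ratios have wide intervals.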

Other observations

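Adhesion and egress genes, which act with homing receptors when leukocytes enter or leave tissues, were lower in the myeloid library more often than higher. Of 22 that could be called, 10 were lower, 3 higher and 9 neither, with a median log2 ratio of −1.90 beside −0.73 over all genes, of which 29.6% were lower and 17.8% higher. Of the 4 genes listed as *itgb1*, the integrin β1 chain, 2 were at 1 read and 4 reads in the myeloid library and at 54.7 and 44.4 CPM in the thymus library (ENSDARG00000104484 and ENSDARG00000071863). One gene listed as *gpr183*, a receptor for oxysterols that positions immune cells in mammals, had 456 reads in myeloid cells and 14857 reads in thymus cells, 39-fold lower (35.5 to 42.9).

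Paralogs again differed in direction. One gene listed as *fermt3*, kindlin-3 of blood cells (ENSDARG00000030938), reached 396 CPM in myeloid cells, against 13.3 CPM in thymus cells, 29.9-fold higher (27.2 to 32.9). The other (ENSDARG00000079267), chosen after its values were seen, reached 7.43 CPM in myeloid cells, against 60.0 CPM in thymus cells, 8.08-fold lower (7.14 to 9.16). Among the sphingosine-1-phosphate receptors, likewise named after their values were seen, *s1pr1*, which mature lymphocytes use to leave the thymus in mice, was at 8.75 CPM in myeloid cells and had 2 reads in the thymus library, as a higher gene beside *s1pr3a*, while *s1pr5a* was lower. *s1pr2*, at 9.43 CPM in myeloid cells and 20.6 CPM in thymus cells, and *s1pr4*, with 0 and 34 reads, were neither. *klf2a*, a relative of the factor that induces *S1pr1* in mice and also named after its values were seen, reached 11.9 CPM in myeloid cells, against 329 CPM in thymus cells, 27.5-fold lower (25.1 to 30.3).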
